A study of Drosophila melanogaster with 3 samples.

Results

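Deep intronic binding of wek was described from 365 ChIP-seq peaks, out of 3582 in all, whose summits lay far inside introns of protein-coding genes. A peak was kept when its summit fell in an intron of a protein-coding gene and in no coding-gene exon. It also had to lie more than 5000 bp from the nearest transcription start site (TSS) of any protein-coding gene. Among the 3582 peaks this choice used position alone and no measured value. The peaks themselves had been set apart from other regions by the authors' threshold. The comparison set was 4577 regions of the same positional class from the authors' relaxed list on pooled replicates, none of which overlapped a peak. The data came from 1 transgenic Drosophila melanogaster line that carries green fluorescent protein at the C-terminal end of wek. Whole embryos of 0 to 16 hours, both sexes together, were used in 3 biological replicates, with chromatin sonicated to 200 to 800 bp. The embryos therefore hold every tissue and many stages at once. The labels give the antibody target as wek and the assay as transcription factor ChIP-seq, while their free text calls each library an input control. An untagged line was not analysed here, and the lists hold no read numbers, so depth is unknown.

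The protein Weckle, made from the wek gene, belongs to the ZAD class of zinc finger proteins. It is known for linking Toll to its adaptors when the fly embryo sets up its dorsoventral axis. Introns of developmental genes in flies often contain enhancers, stretches where several transcription factors bind and act on a start site some distance away. Forkhead factors bind a core written TGTTTAC, and GATA factors bind AGATAA or TGATAA. In the sequences of 81 bases around selected summits below, capitals mark a Forkhead match in the first 6 and a GATA match in the last 2. They show where the element stands in strong peaks that hold it within 40 bp of the summit, and aop was chosen after its value was seen. All are on the forward strand of the dm6 build, read from the RefSeq genome.

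S, chr2L:1072359-1072439: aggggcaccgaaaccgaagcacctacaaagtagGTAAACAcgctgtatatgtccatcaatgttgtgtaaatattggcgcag
Lrch, chr2L:17378807-17378887: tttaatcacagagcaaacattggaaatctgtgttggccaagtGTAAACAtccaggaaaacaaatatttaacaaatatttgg
Dys, chr3R:19584896-19584976: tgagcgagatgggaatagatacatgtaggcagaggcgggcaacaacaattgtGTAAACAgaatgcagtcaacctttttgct
Raf, chrX:2300653-2300733: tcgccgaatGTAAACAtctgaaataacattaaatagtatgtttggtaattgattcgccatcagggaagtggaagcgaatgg
smash, chr3R:4665127-4665207: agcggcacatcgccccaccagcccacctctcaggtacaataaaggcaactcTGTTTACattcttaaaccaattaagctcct
aop, chr2L:2168353-2168433: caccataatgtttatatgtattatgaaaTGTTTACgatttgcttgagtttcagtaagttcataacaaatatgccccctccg
alpha-Spec, chr3L:1784297-1784377: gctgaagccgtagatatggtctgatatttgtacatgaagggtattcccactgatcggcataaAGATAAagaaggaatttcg
Hr4, chrX:1963909-1963989: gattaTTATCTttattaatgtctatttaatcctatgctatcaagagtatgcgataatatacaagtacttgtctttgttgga

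GTAAACA is TGTTTAC read on the other strand, and TTATCT is AGATAA. In S, whose product helps export ligands of the epidermal growth factor receptor (EGFR), the match was centred 4 bp from the summit. In Lrch it was 5 bp from the summit, in aop 9 bp and in Raf 28 bp. The summits of S, Lrch, Dys, smash and aop lay in the first intron of a transcript, and that of Raf in the second. The printed Lrch sequence also held the word AAATAT or its reverse complement 4 times, and the printed Dys, Raf and smash sequences held it 0 times.

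The authors' signal value of the deep intronic peaks ran from 146.5 to 1859, with a median of 212. The 4577 other regions of the class ran from 37.2 to 146.2, with a median of 51.8, and are weaker by construction, since the peaks are the strongest regions of the pooled list. The strongest deep intronic peak lay in the first intron of sbb, which encodes a nuclear corepressor, at chr2R:18336885-18337362. Its signal was 1859, it ranked 33 among all peaks, and its matching regions ranked 33, 43 and 30 in the lists of replicates 1, 2 and 3. The peak in S (signal 1081) ranked 111, 142 and 122, and the peak in Lrch, which encodes a leucine-rich repeat protein, ranked 151, 125 and 146 with a signal of 984. These 3 peaks held similar ranks in each replicate. The peak in alpha-Spec, the alpha subunit of spectrin, had a signal of 852 and ranked 127, 198 and 1204. It ranked far lower in replicate 3 than in the others, and it lay 58 bp from the start of a noncoding gene. The peak in Dys (dystrophin) ranked 213, 245 and 533, and the peak in atos ranked 233, 1133 and 139. Each of the 20 strongest deep intronic peaks was supported by all 3 replicates, where support means overlap by at least 1 bp with the replicate's own 3582 strongest regions. The pooled signal that ranks these 20 rests on the same replicates, so this support is not separate evidence. Among the 1791 stronger peaks of all classes, all 3 replicates supported 150 of 175 deep intronic and 1329 of 1616 other peaks.

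**Figure D1:**
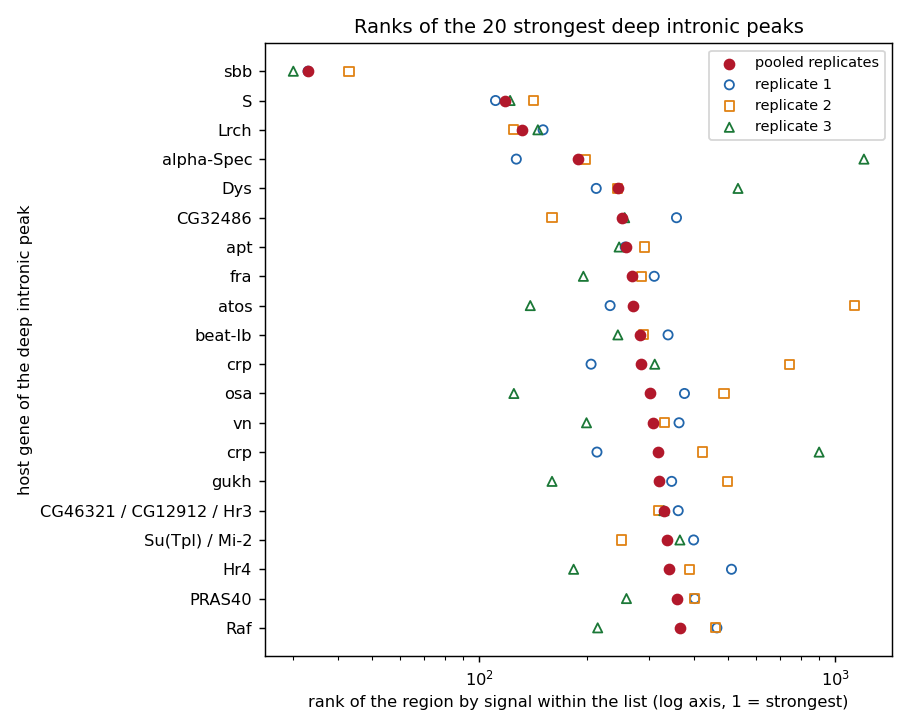
Rank by signal of the 20 strongest deep intronic peaks, 1 row per peak, on a log axis where 1 is the strongest region. Filled points give the rank among all thresholded peaks, and open symbols the rank in the list of each replicate. The peak in sbb stands apart at ranks 30 to 43, and single replicates fall away for alpha-Spec (1204 in replicate 3) and atos (1133 in replicate 2).

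The other peaks of this top 20 lay in genes of varied function. They included apt (signal 708), fra, which encodes the netrin receptor Frazzled (683), and osa, a subunit of the Brahma chromatin remodelling complex (644). They also included vn, the neuregulin-like EGFR ligand Vein (642), Hr4, an orphan nuclear receptor (599), Raf, the kinase downstream of receptor tyrosine kinases (575), and PRAS40, an inhibitor of the TOR complex (584). The gene crp, which encodes a basic helix-loop-helix factor, held a pair of them (668 and 630). The summit near Hr3 (615), another nuclear receptor, also lay inside CG46321 and CG12912, and a peak of signal 610 lay inside both Su(Tpl) and Mi-2. In all, 18 of the 365 summits lay in introns of more than 1 coding gene. The other 4 of the top 20 were in CG32486 (716), atos (682), beat-Ib (671) and gukh (625).

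Deep intronic positions took a smaller share of the peaks than of weaker regions. They made up 365 of 3582 peaks, or 10.2% (exact 95% binomial interval 9.22 to 11.2), against 4577 of the 25958 pooled regions that overlap no peak, or 17.6% (17.2 to 18.1). The odds ratio was 0.530 (two-sided Fisher's exact test, p = 4.86e-32). The 3582 strongest regions of each replicate's own list held 10.2% ± 1.48, and the rest of that list 17.9% ± 3.27 (SD, n = 3). The direction was the same in 3 of 3 replicates: 9.49% against 16.3% in replicate 1, 11.9% against 21.7% in replicate 2 and 9.16% against 15.8% in replicate 3. Regions, not replicates, are the units of this and every other p-value here. Of the remaining peaks, 1832 were within 500 bp of a coding TSS (promoter peaks), 832 were intronic at 500 to 5000 bp, and 462 were intergenic. Of the deep intronic peaks 41, or 11.2%, were among the 716 strongest peaks, against 25% of promoter peaks and 15.4% of the nearer intronic peaks.

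Whether deep intronic peaks were supported more or less often than other peaks depended on the criterion. All 3 replicates supported 183 deep intronic peaks, or 50.1%, against 1565 of the 3217 other peaks, or 48.6% (odds ratio 1.06, Fisher's exact test adjusted over 3 comparisons, p = 0.619). A further 129 were supported by 2 replicates, 50 by 1 and 3 by none. The comparisons with the nearer intronic peaks (51.9% supported) and with promoter peaks (47.4%) also gave an adjusted p of 0.619. With a reciprocal overlap of 50% the odds ratio fell below 1, to 0.761 (Fisher's exact test, p = 0.0345). With peaks remade from pairs of replicates, where support means both, it was 0.762 without replicate 1 (Fisher's exact test, p = 0.00768) and 0.763 without replicate 3 (Fisher's exact test, p = 0.0131). Without replicate 2 it was 0.912 (Fisher's exact test, p = 0.454). With the stronger peaks alone it was 1.30 (Fisher's exact test, p = 0.294). Taken singly, which was chosen after the data were seen, replicate 2 supported 81.1% of deep intronic peaks and 70.9% of other peaks (odds ratio 1.76, Fisher's exact test adjusted over 3 replicates, p = 8.18e-05). Replicate 1 supported 83.3% and 86.2%, and replicate 3 supported 70.4% and 73.7% (both adjusted p = 0.190, Fisher's exact test). Across matched regions, which are not independent, Spearman's rho of the signal between replicates was 0.631 for replicates 1 and 2 (353 regions). It was 0.521 for replicates 1 and 3 (361 regions) and 0.450 for replicates 2 and 3 (354 regions).

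Within the class, peaks favoured first introns, shorter distances to a start site and sequence of lower GC than the other regions. Of 10 position features, 5 passed (50% of the features) at an adjusted p of 0.05, the threshold used throughout with Benjamini-Hochberg adjustment. The summit lay in the first intron of at least 1 transcript for 211 peaks, or 57.8%, against 46.8% of the other regions (odds ratio 1.56, Fisher's exact test, adjusted p = 0.000178). Per replicate, the share was 56.3% ± 0.672 in the strongest 3582 regions and 45.0% ± 5.15 in the rest (SD, n = 3), higher in 3 of 3 replicates. The distance to the nearest coding TSS had a median of 8704 bp (5023 to 86509) in the peaks and 10185 bp in the other regions. Summits over 10 kb away made up 42.2% of peaks and 51.3% of other regions (odds ratio 0.692, Fisher's exact test, adjusted p = 0.00221). Those over 20 kb away made up 12.1% and 17.5% (odds ratio 0.646, Fisher's exact test, adjusted p = 0.0148). Both distance calls were lost with peaks remade without replicate 2 (adjusted p = 0.0586 and 0.0931, Fisher's exact test). The nearest coding TSS belonged to the host gene for 256 peaks, or 70.1%.

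The share of G and C within 100 bp of the summit had a median of 39.8% in the peaks and 43.3% in the other regions, and it exceeded the median of the class in 32.1% of peaks against 49.8% of other regions (odds ratio 0.476, Fisher's exact test, adjusted p = 2.39e-10). The last of the 5 features, a region of the same set within 5 kb, held for 36.7% of peaks and 85.8% of other regions, but the other set is far larger, so no direction is read from it. A measure chosen after the data were seen counted peaks of any class with a summit 1 to 5 kb away. Of the deep intronic peaks 133, or 36.4%, had such a neighbour, against 1084 of the other regions, or 23.7% (odds ratio 1.85, Fisher's exact test, p = 1.86e-07). The remaining features did not pass. An intron longer than 20 kb held 51.2% of peaks and 55.2% of other regions, 18.1% and 16.7% were on X, and 7.67% and 9.05% lay within 500 bp of a coding exon. The start of a noncoding gene lay within 500 bp of 11 peaks, or 3.01%, against 1.86% of other regions, and 13 peaks lay inside a noncoding gene. None of the 365 summits, against 4 of the 4577 others, lay in an annotated transposable element.

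Forkhead and GATA elements were more frequent at deep intronic peaks than at other regions of the class. Of 30 elements searched on either strand in windows reaching 100 bp to each side of the summit, these were the only 2 that passed, 6.67% of the elements. The Forkhead core TGTTTAC was found at 65 peaks, or 17.8%, against 261 other regions, or 5.70% (log2 ratio 1.65, Fisher's exact test, adjusted p = 4.74e-13). In the replicates' own lists, deep intronic regions among the strongest 3582 held it at 17.9%, 13.2% and 17.4%, against 5.93%, 5.01% and 5.31% in the rest of the same lists. The means were 16.2% ± 2.60 and 5.42% ± 0.467 (SD, n = 3), and the values do not overlap. The GATA element was found at 128 peaks, or 35.1%, against 22.3% of other regions (log2 ratio 0.65, Fisher's exact test, adjusted p = 1.59e-06). Per replicate it reached 34.0% ± 0.742 in the strongest regions and 22.0% ± 0.991 in the rest (SD, n = 3). Both elements occurred together at 26 peaks. Since peaks had lower GC, regions at or below the median GC of the class and regions above it were tested apart. This choice, made after the data were seen, left 248 peaks at or below the median and 117 above it. The Forkhead log2 ratio was 1.40 at or below the median GC and 1.95 above it, and passed in both. The GATA log2 ratio was 0.44 at or below the median and 0.72 above it, where it did not pass (Fisher's exact test, adjusted p = 0.0845).

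**Figure D2:**
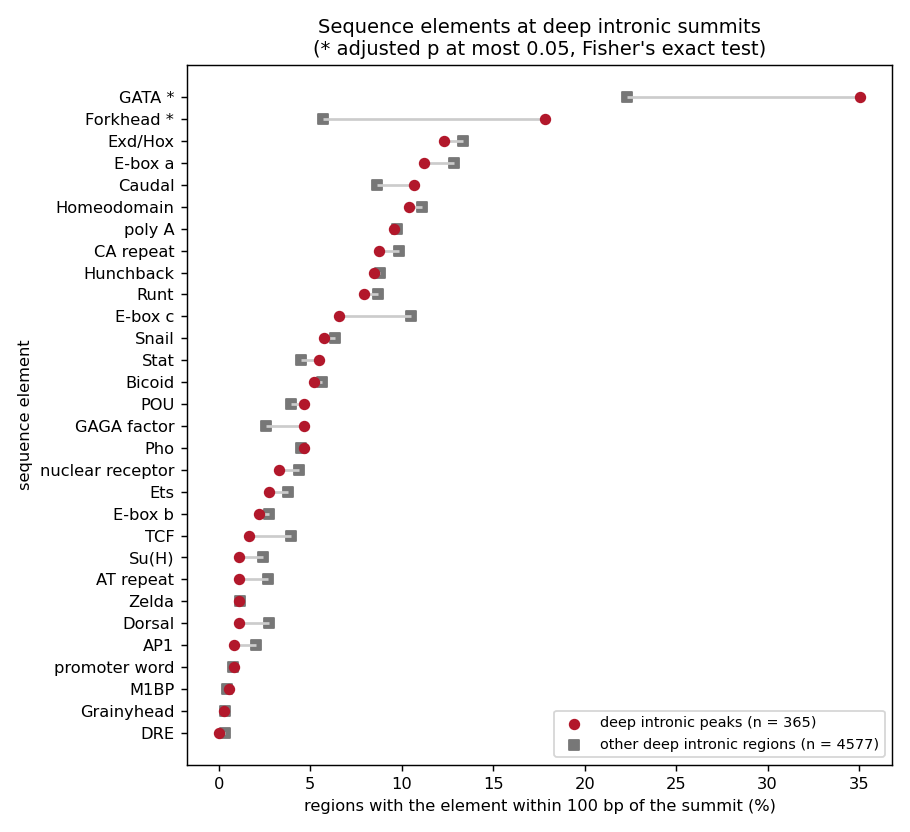
Share of deep intronic peaks (circles, n = 365) and of other deep intronic regions (squares, n = 4577) with each of 30 sequence elements within 100 bp of the summit. Only GATA (35.1% against 22.3%) and Forkhead (17.8% against 5.70%) carry the star for an adjusted p of at most 0.05. E-box a is CACATG, E-box b is the palindrome CACGTG, E-box c is the palindrome CAGCTG, and the promoter word is GAATACCC.

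Matches to the Forkhead core gathered at the summit. There were 75 matches within 100 bp in 65 peaks, 9 of which held more than 1. The match nearest to the summit was a median of 34 bp away, and 47 of the 65 peaks, or 72.3%, had one within 50 bp. In bins of 50 bp, the 2 bins beside the summit held 6.58 and 7.12 matches per 100 peaks, against 1.68 and 2.01 per 100 other regions. Against a window of the same width 500 bp to 1 side of each peak, the core was found at 17.8% of summits and 6.03% of flanks (log2 ratio 1.54, exact McNemar test, adjusted p = 2.67e-05). The same comparison in the other regions gave 5.70% of summits and 4.04% of flanks. It passed there too, with a smaller log2 ratio of 0.50 (exact McNemar test, adjusted p = 0.00124). In the deep intronic peaks 1 other element passed against flanks, so that 2 of 30, or 6.67%, were called. TTTTTTA, a core bound by Hunchback, was found at 8.49% of summits and 16.4% of flanks (log2 ratio -0.94, exact McNemar test, adjusted p = 0.0137). In the other regions of the class it was likewise at 8.83% of summits and 14.8% of flanks (log2 ratio -0.74, exact McNemar test, adjusted p = 1.65e-17). The call in the peaks was lost with windows of 50 bp (log2 ratio -0.86, exact McNemar test, adjusted p = 0.189) and with the flank 300 bp away (log2 ratio -0.79, exact McNemar test, adjusted p = 0.0794). GATA did not pass against flanks, with 35.1% of summits and 26.8% of flanks (exact McNemar test, adjusted p = 0.0966). Other elements made of A and T alone were rarer at summits than in flanks, though none passed. AAAAAAAA was at 9.59% of summits and 15.9% of flanks, ATATATAT at 1.10% and 3.56%, and TAATTA at 10.4% and 17.5%. Some A/T-rich words given below went the other way. Lower GC in the peaks is thus a contrast with the other regions, not with the peaks' own flanks.

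**Figure D3:**
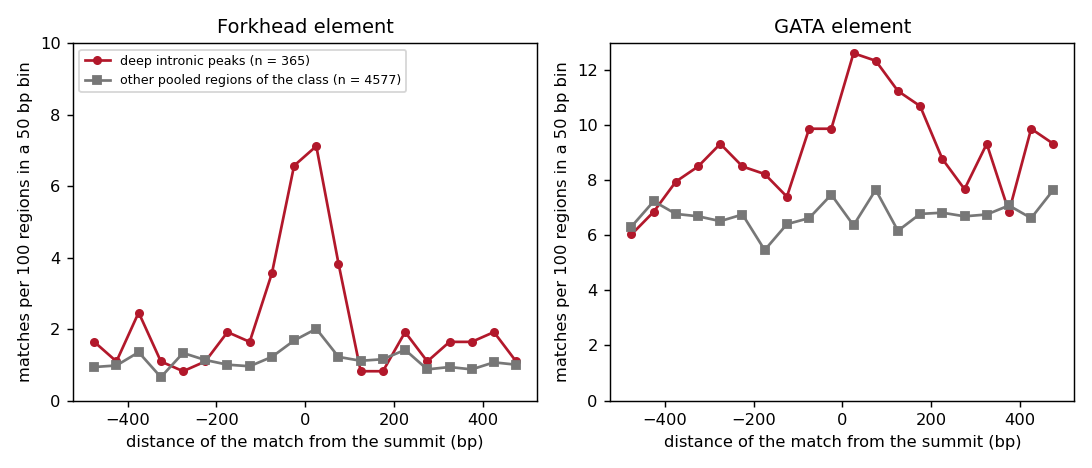
Matches to the Forkhead (left) and GATA (right) elements per 100 regions in bins of 50 bp, by distance from the summit, for deep intronic peaks (circles) and other regions of the class (squares). The Forkhead curve of the peaks reaches 7.12 beside the summit, where that of the other regions is 2.01. GATA matches are broader around the summit.

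The Forkhead core also varied along the signal scale and between classes of peaks. Over all 4942 pooled regions of the class ranked by signal, 16.0% of the strongest 495 and 10.1% of the next 495 held it. In the following 8 groups of 494 regions the share was between 3.24% and 6.07%. The strongest group reached down to a signal of 122 and so took in all 365 peaks. Its share is therefore not separate from the share of the peaks given above. Among deep intronic peaks, those with the core had a median signal of 246, against 206 for those without. All 3 replicates supported 61.5% of the peaks with the core and 47.7% of those without, a difference that did not pass (odds ratio 1.76, two-sided Fisher's exact test, p = 0.0549). The core was found at 15.1% of the nearer intronic peaks, a share from which that of deep intronic peaks could not be told apart (odds ratio 1.21, Fisher's exact test adjusted over 3 classes, p = 0.265). It was rarer at intergenic peaks, at 9.96% (odds ratio of deep intronic over intergenic 1.96, adjusted p = 0.00205, Fisher's exact test), and at promoter peaks, at 10.3% (odds ratio 1.89, adjusted p = 0.000299, Fisher's exact test). Over all 30000 pooled regions 6.94% held it, and 24.1% held the GATA element. GATA was found at 35.1% of deep intronic peaks, 36.5% of nearer intronic, 27.7% of intergenic and 23.5% of promoter peaks, and only the last 2 comparisons passed (adjusted p = 0.0419 and 2.12e-05, Fisher's exact test).

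**Figure D4:**
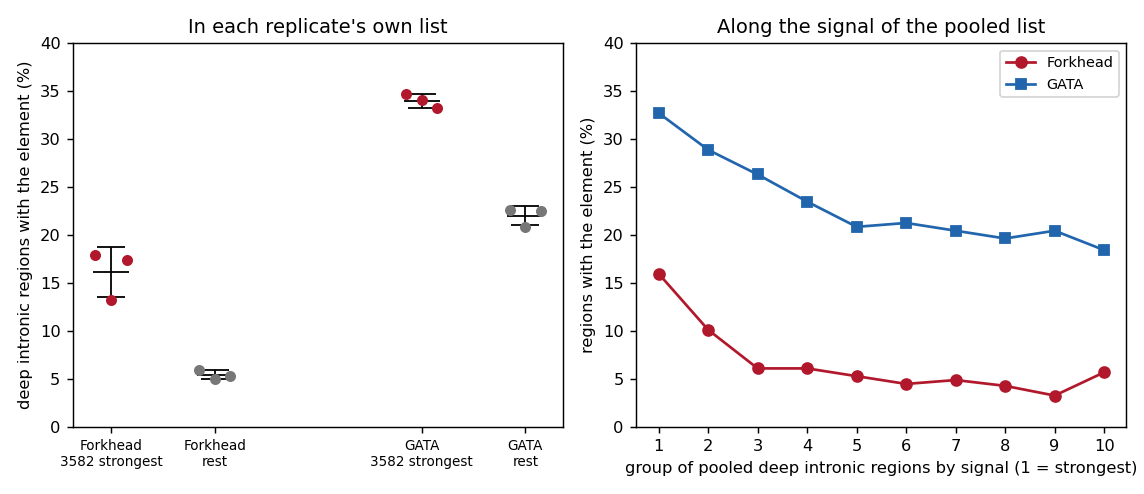
Left: share of deep intronic regions with the Forkhead or GATA element in each replicate's 3582 strongest regions and in the rest of its list, with mean and SD (n = 3). Right: the same shares in 10 groups of the 4942 pooled deep intronic regions from strongest to weakest, where the Forkhead share is 16.0% in the first group and at most 6.07% after the second.

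Several elements of promoters were scarce. The DNA replication-related element TATCGATA was at 0 of 365 deep intronic peaks, which allows a share of up to 0.822%, against 0.306% of other regions and 3.88% of all peaks. The core of the promoter factor M1BP, GGTCACAC, was at 2 peaks, or 0.548%, against 0.459% of other regions and 3.77% of all peaks. The word GAATACCC was at 3, or 0.822%, against 0.787% of other regions and 2.90% of all peaks. None of these 3 differed from other regions of the class by the test (each with an adjusted p of 0.976, Fisher's exact test). Zelda's CAGGTAG, bound by the factor that opens early embryonic enhancers, was at 1.10% of peaks and 1.16% of other regions. The sites of Dorsal, the factor at the end of the Toll pathway, were searched as GG, A or G, 3 bases of A or T, C or T, and CC. They were at 1.10% of peaks and 2.75% of other regions (adjusted p = 0.300, Fisher's exact test).

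Short words, tested without a choice of elements, included parts of the Forkhead core. Of 2080 words of 6 bases, each joined with its reverse complement, 65 (3.12%) were more frequent at deep intronic peaks than at other regions and 38 (1.83%) were less frequent. Both 6-base parts of the Forkhead core were among the 4 words of lowest p. GTAAAC was at 25.2% of peaks and 10.7% of other regions (log2 ratio 1.24), and TAAACA at 38.9% and 21.6% (log2 ratio 0.85). Beside them stood A/T-rich words. AAATAT was at 49.0% of peaks and 28.4% of other regions (log2 ratio 0.79, Fisher's exact test, adjusted p = 3.54e-12), CAAATA at 41.6% and 23.1%, and AATATT at 30.7% and 15.4%. In the flanks of the same peaks these 3 words were at 31.5%, 22.2% and 15.1% of windows. AATATT was more frequent in the strongest regions of every replicate, with 28.8% against 15.5%, 29.6% against 16.0% and 28.4% against 14.2%. In regions without the whole Forkhead core, a setting chosen after the data were seen, AATATT still passed (log2 ratio 0.90), as did the core word TAAACA (log2 ratio 0.61, Fisher's exact test, adjusted p = 0.0139). GTAAAC, whose matches that setting removes in part, had a log2 ratio of 0.79 and did not pass (Fisher's exact test, adjusted p = 0.155). AATATT lost its call in regions above the median GC, where only 117 peaks remained (log2 ratio 0.95, Fisher's exact test, adjusted p = 0.229).

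Among the rarer words, CAGGAC was at 1 of 365 peaks, or 0.274%, against 221 of 4577 other regions, or 4.83% (log2 ratio -3.56, Fisher's exact test, adjusted p = 0.000185). In the replicates it was at 0.882%, 0.941% and 0.610% of the strongest deep intronic regions and at 3.93%, 7.17% and 4.08% of the rest. It was at 3.84% of the peaks' flanks, 1.01% of all peaks and 4.39% of all pooled regions. The call was lost with a distance limit of 10 kb (log2 ratio -2.39, adjusted p = 0.253, Fisher's exact test), with the stronger peaks alone (-2.51, adjusted p = 0.126) and at or below the median GC (-2.13, adjusted p = 0.474). With peaks remade without replicate 3 the log2 ratio was -1.94 and still passed (Fisher's exact test, adjusted p = 0.0174). The number of words called varied widely with the setting: 7 passed among regions of GC at or below the class median (248 peaks), against 103 with all 365 peaks.

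Most genes that could hold such a peak held none. Of 1860 coding genes with intronic sequence over 5 kb from any coding TSS, 247, or 13.3%, held a deep intronic peak. One peak was in 164 of them, 2 were in 53 and at least 3 in 30. Per replicate, 246 ± 23.8 genes held one (SD, n = 3), of which 211 ± 13.9 were among the 247. The density over the eligible sequence of 31.1 Mb was 11.7 peaks per Mb. On X and the arms of 2 and 3 it was between 10.9 on 3R and 15.8 on 2L. None was on 4, where 0.288 Mb was eligible and only 5 other regions lay. Neither a peak nor another region of the class lay on Y, so its lack of peaks cannot be read. The 0.925 Mb of Y is part of the 31.1 Mb.

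Most peaks in 1 gene were the 7 in cic, which encodes the repressor Capicua of receptor tyrosine kinase signalling. Hr4 held 6, and sbb, rdx (an adaptor of the Cullin-3 ubiquitin ligase) and NetA (the axon guidance ligand Netrin-A) held 5 each. The overlapping genes CG45088 and CG6191 shared 5. Raf, PRAS40 and jing, which encodes a zinc finger protein, held 4 each, as did simj, CG42238, Snoo and Tis11, whose summed signal was lower. All 3 replicates supported 50.1% of the 365 deep intronic peaks. In these genes they supported all 4 peaks in jing, 3 of 4 in Raf and in PRAS40, 3 of 5 in rdx and 3 of 6 in Hr4. The counts were 2 of 5 in sbb, 2 of 5 in CG45088 and CG6191, 2 of 7 in cic and 1 of 5 in NetA. With so few peaks per gene, no difference between genes is read from such counts. The Forkhead core was at 17.8% of the 365 peaks. It was at 2 of the 4 in PRAS40 and at 1 peak each in cic, Raf and jing. It was also at 1 of the 5 shared by CG45088 and CG6191, and at none in Hr4, sbb, rdx or NetA.

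The 11 lists of genes were set beside that 13.3%, with no test, and 801 of their 822 entries matched the annotation. The lists were drawn up with earlier results of these data known, so their order is a description only. Among these 11, the lists of signalling genes and of ecdysone-response genes held deep intronic peaks most often. In the list of signalling ligands, receptors and regulators, 24 of 55 eligible genes, or 43.6%, held one, with 32.4 peaks per Mb of eligible sequence. They included vn and InR (the insulin receptor, signal 512), fz (a Wnt receptor, 508), N (the Notch receptor, 366) and Pvf3 (a ligand of the PDGF and VEGF type, 227). They also included Ddr (274), the glypican gene dlp (302) and cact, which encodes the inhibitor of Dorsal (311). Each of these values is the highest signal of a deep intronic peak in the gene. Per replicate, 21.7 ± 1.53 of the 55 genes held such a region (SD, n = 3).

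In the list of nuclear receptors and ecdysone response, 8 of 18, or 44.4%, held one, with 33.2 peaks per Mb, and 8 ± 1 did so per replicate (SD, n = 3). Beside Hr4 and Hr3 these were Eip75B with 3 peaks, EcR, the ecdysone receptor (2), ftz-f1 (2), the coactivator gene tai (1), the ETS factor gene Eip74EF (1) and ImpE1 (1). At the other end, 2 of 57 genes for ion channels and transmitter receptors, or 3.51%, held one, Shal and Octbeta2R, with 1.70 peaks per Mb. Homeodomain and homeotic genes were near the background at 6 of 47, or 12.8%, with 3 peaks in hth and 1 each in pb, cad, Ptx1, otp and tup. Genes of axon guidance and cell adhesion were near it too, at 15 of 109, or 13.8%, with a lower density of 7.34 per Mb. They included NetA with 5 peaks, its receptor gene fra with 2, and caps, Fas3, kirre and Sdc with 2 each.

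**Figure D5:**
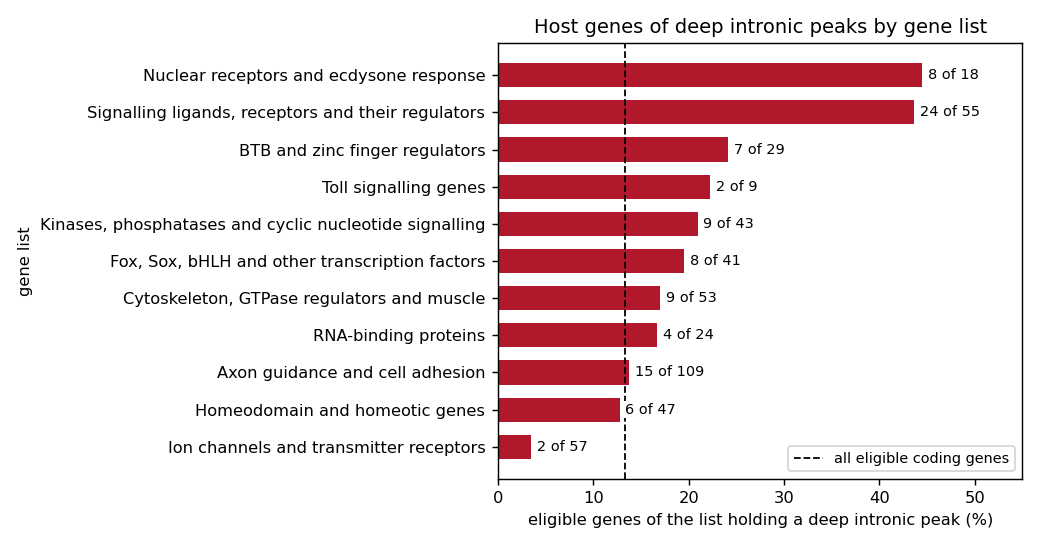
Share of eligible genes in each of 11 lists that held a deep intronic peak, with the number of genes beside each bar. The dashed line is the 13.3% of all eligible coding genes. Nuclear receptor and signalling lists stand at 44.4% and 43.6%, ion channels at 3.51%.

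The other lists lay between. In the list of BTB and zinc finger regulators 7 of 29 genes, or 24.1%, held one, among them sbb, bab1, bab2 and ush. In the list of Fox, Sox, bHLH and other factors 8 of 41 did, or 19.5%, among them crp and the Ets genes aop and pnt, which act downstream of Ras signalling. Kinases, phosphatases and cyclic nucleotide genes stood at 9 of 43 (20.9%), with nmo, dnc and puc at 2 peaks each. Cytoskeleton and muscle genes stood at 9 of 53 (17.0%), and RNA-binding proteins at 4 of 24 (16.7%), namely brat, pum, msi and cpo. Per Mb of eligible sequence the RNA-binding list held 3.87 peaks, below the 11.7 over all eligible sequence. The cytoskeleton and muscle list held 21.1, above it. Of 9 eligible Toll signalling genes 2 held one: Pli, which encodes the Pellino protein, with 2 peaks, and cact with 1. Neither peak in Pli was supported by all 3 replicates, while the peak in cact was. In each replicate's own list, 2 genes of the 9 held such a region, which need not be the same genes.

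Just inside the limit of 5000 bp were peaks in nuf (5023 bp from a TSS, signal 257), bmm (5026 bp, 364) and Tis11 (5034 bp, 240). Just outside it were peaks in cno (4982 bp, signal 208), Ac13E (4974 bp, 166) and ush (4963 bp, 1144).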

How the data were processed

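Per the labels, the authors deposited region lists on the dm6 build: 30000 relaxed regions for each of 3 replicates, 30000 on pooled replicates, and 3582 thresholded regions. Each region has a signal value of the authors' caller and the deposited −log10 q-value. For aligner, caller and threshold, names and versions were not given in the sources used here. Signal only ranked regions within lists, and −log10 q-values were not used for ranks because all 365 deep intronic peaks shared the highest one. Such tied regions and unknown depth limit precision.

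Introns, exons and TSSs came from Ensembl release 115 (annotation 6.54), sequence from RefSeq's genome of the same assembly. A summit is the region's start plus its deposited offset. Per replicate, its 3582 strongest regions stood for peaks. Fisher's and McNemar tests were exact and two-sided (scipy 1.17.1, pandas 2.3.3, Python 3.11.15). The tests of elements, flanks and words were tried on comparison regions split at random, with the Forkhead core planted in some. Such a split builds in no GC difference, and the tests of position and support were not tried in this way. Log2 ratios add 0.5 to counts and 1 to window numbers, so they differ slightly from the ratios of the printed shares, and most where few windows hold the element. Binomial intervals and the limit for 0 (3 counts of the total) cover counting error only. Alternatives changed the distance limit, peak set, TSS set, overlap, windows, flanks, comparison regions and replicates.

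Named are the 20 strongest peaks, the 10 hosts with most peaks, 3 peaks each side of the limit and up to 8 holders per list. Members, elements and lists were chosen with earlier results of these data known.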

Additional observations from a re-analysis of the deposited data

How the results depend on the processing

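The share of deep intronic positions kept its direction and its call under all 6 alternatives, with odds ratios of 0.451 to 0.722. The odds ratio of support by all 3 replicates, 1.06, fell to 0.996 with a limit of 10 kb, to 0.761 with reciprocal overlap of 50%, and to 0.762 to 0.912 without 1 replicate, but was 1.30 with the stronger peaks and 1.08 with noncoding TSSs included; the cause was not tested. Position features called were 5, but 3 with the 10 kb limit, under which every region is over 10 kb away, and 3 to 6 without 1 replicate. Forkhead kept its call against other regions under all 10 alternatives (log2 ratio 1.39 to 1.95) and against flanks under all 8 (1.38 to 2.81). Elements called against other regions were 2, but 1 with GC above the class median and 2 to 3 without 1 replicate. Elements called against flanks were 2, but 1 with windows of 50 bp, 3 with noncoding TSSs included and 4 to 5 without 1 replicate. Words of 6 bases called were 103. They were 14 with the 10 kb limit, 26 with the 1791 stronger peaks, 68 with noncoding TSSs included, and 46 against the 2289 stronger of the other regions. They were 7 and 27 at or below and above the median GC (248 and 117 peaks), 67 in regions without the Forkhead core and 58 to 171 without 1 replicate. Of 32882 words of 8 bases, 33 passed. Host genes were 247, but 106 with the 10 kb limit, 144 with the stronger peaks and 228 to 281 without 1 replicate; the first 2 settings leave fewer peaks (154 and 175). Settings were also followed for single results: Forkhead and GATA against other regions, Forkhead and Hunchback against flanks, 5 features and 12 of the 103 words. Over these results and settings, 172 values kept direction and call, 26 lost the call and none of these turned round. No paired analysis was possible because all samples form 1 group.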
